A study of Mus musculus with 9 samples.

Results

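Transcripts of 41 glycolysis and hypoxia response genes were followed in RNA of mouse spleen cells described in the labels as CD4+ T cells. The genes were taken by name from 2 groups. No measured value enters that rule, but the members were chosen with earlier results of these data known. The glycolysis group holds 24 genes, namely 4 transporters of glucose or lactate, 17 enzymes and 3 regulators of flux. The hypoxia group holds 17, namely Hif1a, 2 prolyl hydroxylases that act on its product and 14 other targets of HIF-1. The table of the study lists 56860 genes, and all 41 were among the 19348 with enough counts to be tested.

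Libraries were made from 3 groups of 3 samples: CIA mice given luteolin, which is a plant flavone, CIA mice without it, and control mice. RA and Th17 cells, which are helper T cells known for IL-17, appear in the title of the series, and the labels use CIA without spelling it out. Strain, genotype, age, sex, and the dose and duration of luteolin are not given in the sources used here. Nothing in the labels tells whether the libraries of a group came from different animals, so p-values describe library-to-library spread that may be technical.

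Glycolysis breaks glucose down to pyruvate with a small gain of ATP, and lactate dehydrogenase turns pyruvate into lactate that leaves the cell with a proton. HIF-1 is a transcription factor whose alpha subunit, encoded by Hif1a, is made steadily and destroyed while oxygen is present, after prolyl hydroxylases of the EGLN family have marked it. When oxygen is short, or in activated immune cells, the subunit persists and binds DNA with its partner ARNT at sites built around the core ACGTG or GCGTG. Its targets include most glycolytic enzymes as well as genes of mitophagy, collagen modification and histone demethylation, and both activated helper T cells and neutrophils are known for heavy use of glycolysis.

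That core was looked for in RefSeq promoter windows of 300 bases (build GRCm38.p6), each holding 250 bases before an annotated start and 50 after it. Both strands were read for ACGTG and GCGTG, and cores on opposite strands can overlap and were counted separately. Of the 41 genes, 37 matched the promoter table by symbol, while Bhlhe40, Bnip3l, Ndrg1 and Slc2a3 did not. At least 1 core lay in a window of 34 of the 37 (91.9%), against 64.2% of the 11772 tested genes that have a window and 46.7% of all 27025 genes in the table. The hypoxia genes had a core in 14 of 14 and the glycolysis genes in 20 of 23. The glycolysis genes without a core in these windows were Gpi1, Tpi1 and Eno2. Counted by window, 46 of the 58 windows of these genes (79.3%) held a core, against 58.5% of the windows of tested genes and 43.8% of all 32851 windows. A match describes letters only and shows no binding. The members were picked as known HIF-1 targets or genes of glycolysis, so a high share is no test of the list.

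Promoters are shown for the 4 genes with a core that changed most in CIA against control, and for the 2 without a core that changed most, so that the letters can be set beside the expression values. Egln3 lies on chr12:54203825-54204124, minus strand, with its core at position -229, where 1 is the start base and -1 the base before it. Slc16a3 lies on chr11:120948817-120949116, plus strand, with cores at -27 and -14. Pkm lies on chr9:59656977-59657276, plus strand, with cores on the opposite strand at -75 and 9. Another Pkm window, chr9:59656326-59656625, held 0 cores, and for each gene the window with most cores is shown. Ankrd37 lies on chr8:45999801-46000100, minus strand, with cores at -241, -155, -152 and -6. Tpi1 (chr6:124814109-124814408) and Gpi1 (chr7:34230287-34230586), both on the minus strand, have none. Capitals mark the cores, read 5′ to 3′ along the gene, and those of Ankrd37 at -155 and -152 overlap in 1 run.
Egln3: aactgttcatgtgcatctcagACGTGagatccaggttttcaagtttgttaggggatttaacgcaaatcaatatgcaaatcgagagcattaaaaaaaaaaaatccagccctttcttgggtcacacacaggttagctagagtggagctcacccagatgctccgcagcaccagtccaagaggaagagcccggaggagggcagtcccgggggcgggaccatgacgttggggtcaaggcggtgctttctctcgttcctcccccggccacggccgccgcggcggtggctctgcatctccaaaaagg
Slc16a3: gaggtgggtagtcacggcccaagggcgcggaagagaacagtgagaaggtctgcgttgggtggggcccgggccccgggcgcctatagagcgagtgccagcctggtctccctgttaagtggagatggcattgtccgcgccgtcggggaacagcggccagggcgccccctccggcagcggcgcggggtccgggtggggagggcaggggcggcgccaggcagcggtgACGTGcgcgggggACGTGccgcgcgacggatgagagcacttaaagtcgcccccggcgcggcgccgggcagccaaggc
Pkm: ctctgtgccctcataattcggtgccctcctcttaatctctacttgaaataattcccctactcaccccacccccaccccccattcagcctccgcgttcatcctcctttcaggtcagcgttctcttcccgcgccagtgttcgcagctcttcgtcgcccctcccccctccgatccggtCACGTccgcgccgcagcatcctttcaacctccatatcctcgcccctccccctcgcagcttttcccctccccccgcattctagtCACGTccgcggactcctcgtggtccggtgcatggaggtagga
Ankrd37: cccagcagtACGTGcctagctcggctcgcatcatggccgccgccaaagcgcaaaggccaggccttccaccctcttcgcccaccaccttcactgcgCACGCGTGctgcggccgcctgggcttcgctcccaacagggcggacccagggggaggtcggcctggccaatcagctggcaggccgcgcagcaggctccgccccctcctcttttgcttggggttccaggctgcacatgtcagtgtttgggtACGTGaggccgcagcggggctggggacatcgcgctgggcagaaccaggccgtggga
Tpi1: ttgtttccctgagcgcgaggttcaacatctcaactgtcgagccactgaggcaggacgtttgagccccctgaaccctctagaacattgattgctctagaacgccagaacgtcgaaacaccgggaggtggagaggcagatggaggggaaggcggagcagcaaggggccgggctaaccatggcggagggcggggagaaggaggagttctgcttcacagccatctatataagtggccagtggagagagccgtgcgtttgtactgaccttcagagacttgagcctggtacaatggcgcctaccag
Gpi1: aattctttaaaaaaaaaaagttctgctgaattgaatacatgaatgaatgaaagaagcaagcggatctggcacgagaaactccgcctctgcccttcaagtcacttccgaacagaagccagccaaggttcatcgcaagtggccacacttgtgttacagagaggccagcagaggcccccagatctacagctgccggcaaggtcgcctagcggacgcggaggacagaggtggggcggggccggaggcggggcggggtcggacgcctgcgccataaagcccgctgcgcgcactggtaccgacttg

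Library totals ran between 31234177 and 41815573 counts. Cd4, the marker that names the cells, stood at 98.5 to 106 CPM (counts scaled for library size with TMM) in CIA with luteolin and 82.1 to 151 in CIA, but at 2.46 to 3.65 in the libraries labelled control. Cd3e, a chain of the T cell receptor complex, stood at 23.4 to 26.9, 25.0 to 48.1 and 11.6 to 14.8 CPM in the same groups. The neutrophil transcript S100a9 was far more abundant per library, at 3784 to 4287 CPM with luteolin, 4783 to 8339 in CIA and 1503 to 1928 in control. The control libraries thus held little Cd4, the marker of the labelled cell type, though not little of every T cell marker, as given below. Every difference against control below rests on these libraries, and the comparison of luteolin with CIA can be fitted without them. CIA libraries were also the most uneven. The median coefficient of variation over the 41 genes was 6.26% with luteolin, 30% in CIA and 7.47% in control, against 8.72%, 18.9% and 10.4% over all tested genes.

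In CIA, replicate 3 had the highest level of the group for 22 of 24 glycolysis genes and 16 of 17 hypoxia genes, against 39.2% of all tested genes. Replicate 3 also led 18 of the 24 glycolysis genes with luteolin and 18 in control, against 33% and 37.2% of all tested genes. Of the 17 hypoxia genes it led 9 with luteolin and 6 in control. Summed over the 24 glycolysis genes, levels were 4875, 4293 and 5121 CPM with luteolin, 5382, 7230 and 10649 in CIA, and 2221, 2254 and 2479 in control. The 17 hypoxia genes summed to 1578, 1509 and 1613 CPM with luteolin, 1395, 1838 and 2369 in CIA, and 967, 939.7 and 931 in control. Every library with luteolin lay below every CIA library in the glycolysis sum, but inside the CIA range in the hypoxia sum, and control was lowest in both.

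Markers of other cells moved across the same libraries. The 11 neutrophil markers, all detected in all libraries, summed to 8378 to 8847 CPM with luteolin, 6845, 10244 and 11463 in CIA replicates 1, 2 and 3, and 2128 to 2485 in control. That sum is led by S100a9 and hides opposite moves: in luteolin against CIA 3 of the 11 rose and 7 fell, with log2 fold changes from -2.48 to 3.11. Ngp, a granule protein gene, averaged 2268 ± 28.7 CPM with luteolin and 262 ± 54.5 in CIA, while Retnlg, a gene of mature neutrophils, averaged 9.14 ± 1.49 with luteolin and 50.9 ± 11.5 in CIA. The 10 T cell markers summed to 442 to 463 CPM with luteolin, 448, 698 and 728 in CIA, and 268 to 294 in control. Cd4 averaged 104, 128 and 2.92 CPM of that in the same groups. Against control 8 of the 10 rose in CIA and 8 with luteolin, while 2 lay below every control library with luteolin. Lck averaged 71.7 ± 2.77, 84.3 ± 9.35 and 81.5 ± 0.327 CPM, and Cd2 90.6 ± 4.62, 125 ± 17.2 and 109 ± 6.34, in the same groups. The 6 B cell markers summed lower in CIA than in control, at 373 to 467 CPM with luteolin, 1453, 846 and 256 in CIA, and 1824 to 1891 in control. In luteolin against CIA 2 of the 6 fell and 0 rose. So within CIA, the order of the replicates was the same for glycolysis, hypoxia, neutrophil, T cell, mast cell and megakaryocyte sums. The B cell sum had the opposite order. In the sums for neutrophil precursors, macrophages and erythroid cells, replicate 3 was highest and replicate 2 lowest. The 12 markers of macrophages and monocytes summed to 569.7 to 649.5 CPM with luteolin, 129 to 163 in CIA and 197 to 255 in control, with C1qa, C1qb and C1qc each at 0 in at least 1 CIA library. All 12 rose in luteolin against CIA. In CIA against control 8 fell and 1 rose, with Ccr2 at 11.0 ± 3.24 CPM in CIA against 3.91 ± 0.569. In luteolin against control 9 rose and 1 fell, with Spic at 22.8 ± 0.542 CPM with luteolin against 35.7 ± 2.27. The 4 neutrophil precursor markers summed to 320.1 to 387 CPM with luteolin, 2.60 to 4.27 in CIA and 2.05 to 4.8 in control, with Elane at 0 in 1 control library. Mast cell and basophil markers (6) summed to 150.3 to 178 CPM with luteolin, 30.4 to 53.6 in CIA and 2.46 to 3.85 in control, with Cma1 at 0 in every CIA and control library. Megakaryocyte markers (5) summed to 84.8 to 89.6, 19.5 to 42.8 and 4.91 to 6.90 CPM in the same groups, led by Itga2b and Pf4. In luteolin against CIA 2 of these 5 rose and 1 fell, with Gp1bb at 1.31 ± 0.153 CPM with luteolin against 2.61 ± 0.761 in CIA. The 8 erythroid markers found in the table summed to 97.5 to 112 CPM with luteolin, 77.1 to 106 in CIA and 76.0 to 78.4 in control. The erythroid sum was almost all Tfrc, the transferrin receptor gene, at 105 ± 7.66 CPM with luteolin, 83.1 ± 15 in CIA and 72.7 ± 2.1 in control. Of the 5 erythroid markers tested in luteolin against CIA, Tfrc rose and 3 fell (median log2 fold change -2.32), among them the globin gene Hbb-bs at 0.403 ± 0.166 CPM with luteolin against 2.13 ± 0.198 in CIA. The part of these cells in the results was not tested, and in such bulk RNA a change in the number of cells of a type and a change in RNA per cell cannot be told apart.

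**Figure D1:**
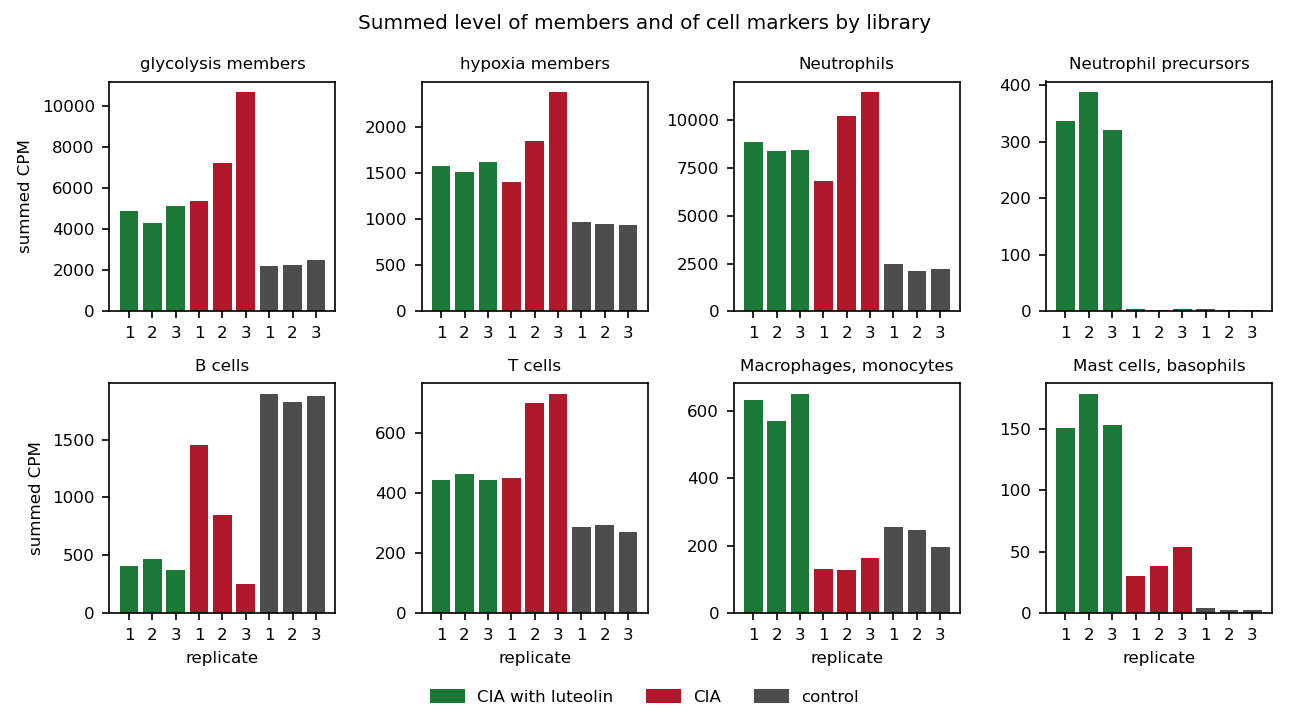
Summed TMM-scaled CPM of the glycolysis genes, the hypoxia genes and 6 lists of cell markers, with 1 bar per library and 3 libraries in each of CIA with luteolin, CIA and control. The glycolysis sum of CIA spreads from 5382 to 10649 CPM, while that with luteolin stays within 4293 to 5121 and that of control within 2221 to 2479.

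The comparison of CIA with control asks what differs in the mice labelled CIA. Glycolysis transcripts were higher there almost throughout: 22 of 24 rose and 0 fell, where 26.6% of all tested genes rose and 24.5% fell (edgeR's quasi-likelihood test, Benjamini-Hochberg adjusted p under 0.05). Of the hypoxia genes 12 of 17 rose and 0 fell. No member fell at an unadjusted p under 0.05 either, and DESeq2 gave the same 22 and 12 with 0 lower. The median log2 fold change was 1.37 for glycolysis and 1.17 for hypoxia genes, against -0.01 over all tested genes. In all 3 CIA libraries 22 glycolysis and 11 hypoxia genes lay above all 3 control libraries, as did 29.7% of tested genes, and 29.1% lay below. The genes past the threshold were all 17 enzymes, 3 of 4 transporters, 2 of 3 regulators, Hif1a and Egln3, and 10 of the 14 other HIF-1 targets. Without CIA replicate 3 the counts were 21 glycolysis and 11 hypoxia genes higher, with 1 hypoxia gene, Bhlhe40, then lower (-0.26).

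Luteolin against CIA asks what differed in CIA mice when the compound was given. Of the glycolysis genes 13 of 24 fell and 2 rose, where 24.2% of tested genes fell and 23.1% rose. Of the hypoxia genes 10 of 17 fell and 2 rose. Their median log2 fold changes were -0.52 and -0.57, against -0.04 over all tested genes. All 3 libraries with luteolin lay below all 3 of CIA for 13 glycolysis and 8 hypoxia genes, as for 27.7% of tested genes, and above them for 3 and 1, as for 28% of tested genes. The 4 that rose were the enzymes Hk2 and Eno2, the hydroxylase Egln1 and the repressor gene Bhlhe40. Of these 4, only Eno2 kept its call under all 15 alternative settings, and of the 23 that fell 15 did. Fitted on the 6 libraries of this comparison alone, without control, 11 glycolysis and 8 hypoxia genes fell and 1 and 0 rose. With single CIA libraries left out, 17, 12 and 12 glycolysis genes fell without replicates 1, 2 and 3. The hypoxia genes that rose numbered 0, 0 and 5 in those same fits. Over all fits with 1 library left out, 3335 to 5032 of all tested genes fell and 3706 to 4852 rose. Ldha (-0.67), P4ha1 (-0.66) and Aldoa (-0.57) missed the threshold without luteolin replicate 2, Pfkfb4 without luteolin replicate 1 (-0.43) or 3 (-0.45), and Hk1 without any 1 of the 3 (-0.68 to -0.51). Tpi1 (-0.76), Pgam1 (-0.70), Eno1 (-0.39) and Pfkfb3 (-0.34) passed it as lower without CIA replicate 1.

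Against control, CIA with luteolin still had 18 of 24 glycolysis genes higher and 0 lower, where 24.2% of tested genes rose and 20.8% fell. Among hypoxia genes 8 of 17 rose and 1 fell. Median log2 fold changes were 0.94 and 0.49, against -0.01 over all tested genes. All 3 libraries with luteolin lay above all 3 control libraries for 21 glycolysis and 11 hypoxia genes and below them for 1 and 3, as for 32.3% and 30.9% of tested genes. For glycolysis genes the count lower was 0 also at an unadjusted p under 0.05 and by DESeq2, and 1 (Pdk1, -0.34) without control replicate 3. The glycolysis genes short of the threshold were Slc2a3, Slc16a1, Gpi1, Pfkp, Aldoc and Pdk1. Some of these calls depended on the fit. Slc2a3 passed as higher in 7 of the alternative settings, Gpi1 in 5 and Pfkp in 1, while Aldoa lost its call in 4. Among hypoxia genes, Bnip3 passed as higher in 7, Ndrg1 in 5 and Vegfa in 3, while Bhlhe40 lost its call in 5. Gpi1 stood at 267 to 290 CPM with luteolin and 192 to 217 in control, without overlap. The 3 comparisons share libraries pairwise, so their values are set side by side only.

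**Figure D2:**
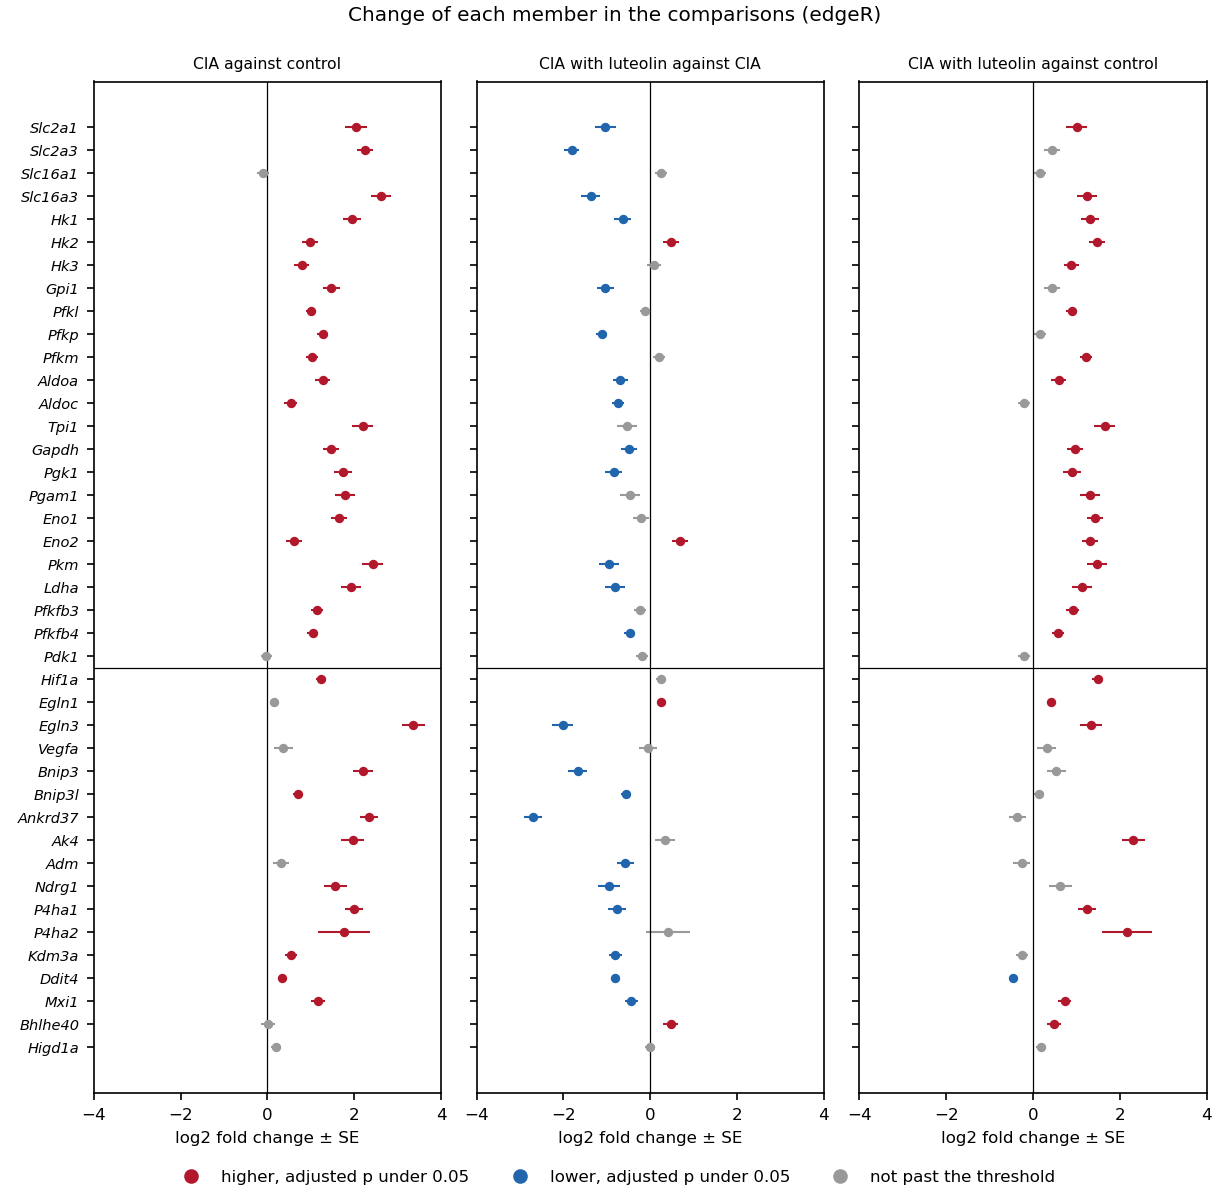
Log2 fold change of each of the 41 genes in CIA against control, CIA with luteolin against CIA, and CIA with luteolin against control, with bars of 1 SE from edgeR. Red marks genes higher and blue genes lower at an adjusted p under 0.05, grey the rest; the first panel holds no blue point and the middle panel 23.

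Among the transporters, Slc2a1 encodes GLUT1, the widely used glucose carrier, and Slc2a3 encodes GLUT3, a carrier of high affinity for glucose. Slc2a3 (chromosome 6, 122704768 to 122778599, minus strand, mm39 as for all gene positions below) stood at 54.0, 58.6 and 57.5 CPM with luteolin, 138, 200.4 and 258 in CIA, and 41.9, 41.4 and 42.3 in control. CIA was apart from both other groups, and luteolin sat just above control. The gene was 4.75-fold higher in CIA than in control (log2 fold change 2.25 ± 0.18 SE, edgeR adjusted p = 1.12e-05). It fell with luteolin against CIA (-1.81 ± 0.18, edgeR adjusted p = 2.13e-05), and against control the difference was 0.44 ± 0.17 (edgeR adjusted p = 0.0622). Slc2a1 (chromosome 4, 118965908 to 118995180, plus strand) stood at 39.5, 34.1 and 41.3 CPM with luteolin, 50.6, 69.5 and 115 in CIA, and 17.4, 18.9 and 20.7 in control. Here the groups did not overlap in any pair, and the libraries with luteolin lay midway. Its log2 fold changes were 2.05 ± 0.25 in CIA against control, -1.03 ± 0.24 in luteolin against CIA and 1.01 ± 0.24 in luteolin against control, with edgeR adjusted p = 0.000115, 0.00485 and 0.00622 in that order.

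Slc16a3 and Slc16a1 encode MCT4 and MCT1, carriers that move lactate with a proton across the plasma membrane, with MCT4 known for export from glycolytic cells. Slc16a3 (chromosome 11, 120839306 to 120851694, plus strand) stood at 38.9, 32.4 and 38.9 CPM with luteolin, 64.3, 90.5 and 131 in CIA, and 14.3, 14.1 and 18.2 in control. No pair of groups overlapped. The gene was 6.14-fold higher in CIA than in control (2.62 ± 0.23, edgeR adjusted p = 1.72e-05), fell with luteolin (-1.37 ± 0.22, edgeR adjusted p = 0.000525) and stayed above control with it (1.24 ± 0.22, edgeR adjusted p = 0.00118). Slc16a1 was flat by comparison, at 19.5 to 21.6 CPM with luteolin, 13.6 to 19.0 in CIA and 16.4 to 20.5 in control, with log2 fold changes between -0.10 and 0.26 and no adjusted p under 0.148. Per length, Slc16a3 made up 59.7% ± 1.60 of the 2 lactate carriers with luteolin, 81.3% ± 6.31 in CIA and 41.2% ± 4.34 in control (SD of RPKM shares, n = 3). Of the exonic bases of Slc16a3, 5.75% overlap Csnk1d on the opposite strand, and reads there cannot be told apart if strand was ignored in counting.

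Hexokinases trap glucose in the cell as glucose 6-phosphate, and the genes of this family behaved unlike each other. Hk2, the isozyme most associated with growing and activated cells, stood at 132, 123 and 135 CPM with luteolin, 71.3, 78.5 and 128 in CIA, and 43.8, 45.4 and 51.5 in control (chromosome 6, 82702006 to 82751435, minus strand). Libraries with luteolin overlapped only the highest CIA library, replicate 3. Hk2 rose in CIA against control (0.98 ± 0.19, edgeR adjusted p = 0.00155) and in luteolin against control (1.47 ± 0.19, edgeR adjusted p = 0.000151). Its rise in luteolin against CIA was at the edge of the threshold (0.49 ± 0.18, edgeR adjusted p = 0.0489), and 10 of the 15 alternatives lost it. Hk1, which sits on mitochondria in most tissues, rose 3.85-fold in CIA against control (1.94 ± 0.21, edgeR adjusted p = 6.07e-05) and fell with luteolin (-0.64 ± 0.20, edgeR adjusted p = 0.0251). Hk3, the isozyme of myeloid cells, averaged 209.7 ± 6.17 CPM with luteolin, 197 ± 57.4 in CIA and 114 ± 4.66 in control, and its difference between luteolin and CIA was 0.09 ± 0.17 (edgeR adjusted p = 0.7). Of hexokinase RPKM, Hk1 made up 22.9% ± 1.13 with luteolin, 34.3% ± 2.36 in CIA and 19.7% ± 1.76 in control, while Hk3 made up 55.8% ± 1.25, 50.9% ± 4.0 and 64.0% ± 2.79.

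Phosphofructokinase commits sugar to glycolysis, and it too has isozymes. Pfkp, the platelet type, stood at 197, 190.3 and 202 CPM with luteolin, 332, 429 and 515 in CIA, and 169, 177 and 182 in control (chromosome 13, 6629804 to 6698813, minus strand). CIA stood clear of both other groups, and luteolin lay narrowly above control. Pfkp rose in CIA (1.28 ± 0.13, edgeR adjusted p = 4.37e-05), fell with luteolin against CIA (-1.11 ± 0.13, edgeR adjusted p = 7.05e-05), and differed by 0.16 ± 0.13 in luteolin against control (edgeR adjusted p = 0.333). The liver and muscle types Pfkl and Pfkm rose in CIA by 1.0 ± 0.12 and 1.02 ± 0.14, and against CIA luteolin differed by -0.11 ± 0.12 (edgeR adjusted p = 0.461) and 0.20 ± 0.14 (edgeR adjusted p = 0.263). Pfkp thus made up 51.6% ± 1.09 of phosphofructokinase RPKM with luteolin, 68.4% ± 1.73 in CIA and 64.4% ± 0.388 in control. Pfkl made up 42.3% ± 1.25, 28.2% ± 0.714 and 32.0% ± 0.535 in the same groups. Pfkm was near the low end of the 41 genes, at 4.33 to 5.88 CPM in CIA and luteolin libraries and 2.37 to 2.61 in control, and 10.7% of its exonic bases lie in other genes.

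**Figure D3:**
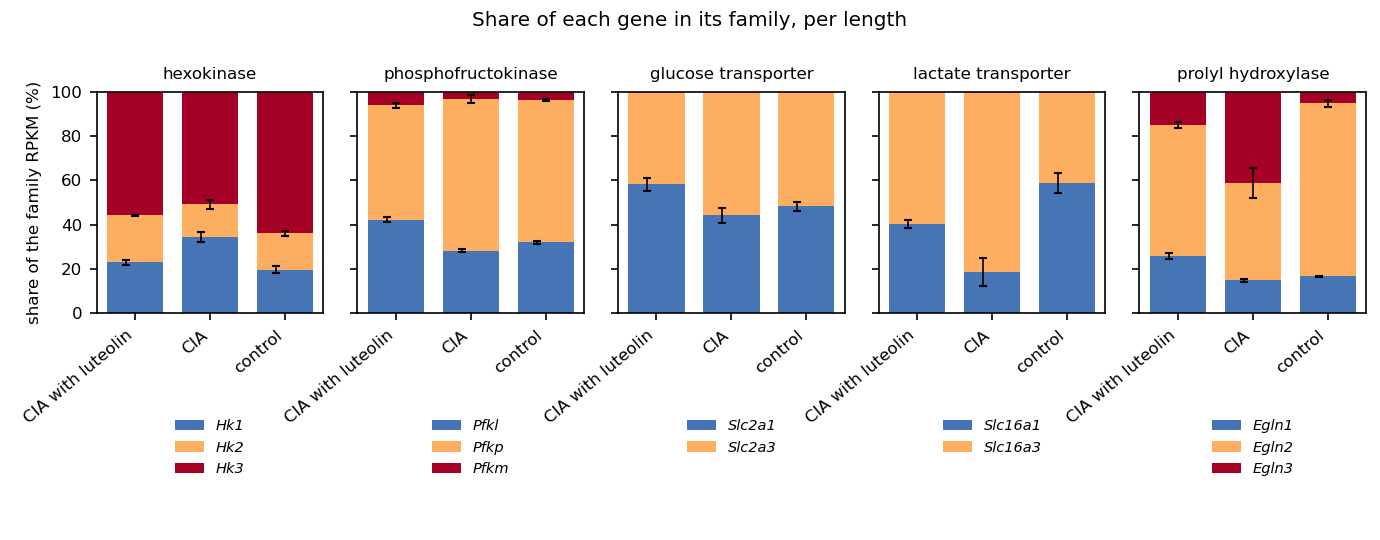
Share of each isozyme in the summed RPKM of its family, stacked as means of 3 libraries per group with the SD of the share below each bar, for CIA with luteolin, CIA and control. Slc16a3 takes 59.7% of the lactate carriers with luteolin, 81.3% in CIA and 41.2% in control, and Pfkp takes 51.6%, 68.4% and 64.4% of phosphofructokinase.

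Enzymes of the middle steps were all higher in CIA. The major ones, Gpi1 (sugar isomerase), Aldoa (aldolase), Gapdh and Pgk1 (the dehydrogenase and kinase that follow), Pgam1 (mutase) and Eno1 (enolase), rose in CIA against control by 1.28 to 1.79 on the log2 scale, each with an edgeR adjusted p under 0.05, between Tpi1 at 2.19 and the minor isozymes Eno2 at 0.62 and Aldoc at 0.54. With luteolin against CIA, Gpi1 (-1.03 ± 0.19), Pgk1 (-0.84 ± 0.20), Aldoa (-0.68 ± 0.17) and Gapdh (-0.49 ± 0.18) fell. For Pgam1 and Eno1 the values were -0.47 ± 0.23 (edgeR adjusted p = 0.111) and -0.22 ± 0.18 (edgeR adjusted p = 0.361). Gapdh lost its call under 11 of the 15 alternatives, and its difference was -0.21 without CIA replicate 3. Several of these genes have retrocopies: 67% of the 100-base stretches of the Pgk1 transcript, 59% of Eno1, 39.7% of Pgam1 and 18.2% of Gapdh also occur in transcripts of other genes (GENCODE M21), and the rule for reads that map to several places is not given in the sources used here.

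Tpi1, triose-phosphate isomerase, stood at 178, 147 and 176 CPM with luteolin, 161, 223 and 345 in CIA, and 45.9, 49.5 and 64.1 in control (chromosome 6, 124787549 to 124791259, minus strand). Luteolin and CIA overlapped, and control lay apart from both. Tpi1 was 4.57-fold higher in CIA than in control (2.19 ± 0.24, edgeR adjusted p = 6.81e-05) and 3.14-fold higher with luteolin than in control (1.65 ± 0.24, edgeR adjusted p = 0.000323). Its difference between luteolin and CIA was -0.54 ± 0.23 (edgeR adjusted p = 0.0775). The 3 genes without a core in their windows differed by 2.19 ± 0.24 (Tpi1), 1.47 ± 0.19 (Gpi1) and 0.62 ± 0.19 (Eno2) in CIA against control. The minor isozymes Aldoc and Eno2 were scarce, at 0.850 to 1.42 and 0.809 to 2.01 mean RPKM. Aldoc rose in CIA (0.54 ± 0.15) and fell with luteolin (-0.74 ± 0.15), while Eno2 rose in CIA and rose again with luteolin against CIA (0.69 ± 0.19, edgeR adjusted p = 0.011). Eno2 missed the threshold in CIA against control without CIA replicate 3 (0.47) and without control replicate 1 (0.58) or 3 (0.56).

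At the end of the pathway, Pkm encodes the pyruvate kinase of most tissues and Ldha the lactate dehydrogenase subunit that favours lactate. Pkm (chromosome 9, 59563651 to 59586658, plus strand) stood at 1382, 1146 and 1486 CPM with luteolin, 1702, 2297 and 3775 in CIA, and 466, 458 and 524 in control. The groups were apart in every pair, and CIA replicate 3 was highest of all. Pkm was 5.37-fold higher in CIA than in control (2.43 ± 0.24, edgeR adjusted p = 3.6e-05), fell with luteolin against CIA (-0.95 ± 0.23, edgeR adjusted p = 0.00625) and was 2.77-fold higher with luteolin than in control (1.47 ± 0.23, edgeR adjusted p = 0.000577). Of its exonic bases 15.3% lie in Gm49759 on the same strand, whose counts came to 6.96% of those of Pkm. Ldha (chromosome 7, 46490899 to 46505051, plus strand) stood at 231, 197 and 231 CPM with luteolin, 245, 344 and 560.3 in CIA, and 102, 92.8 and 108 in control. Again no pair of groups overlapped, although luteolin replicates 1 and 3 lay close to CIA replicate 1. Ldha rose in CIA (1.92 ± 0.24, edgeR adjusted p = 0.000134), fell with luteolin (-0.80 ± 0.23, edgeR adjusted p = 0.0156) and stayed above control with luteolin (1.12 ± 0.23, edgeR adjusted p = 0.00288).

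Per length, Pkm led the 41 genes in CIA at 518 ± 213 RPKM, ahead of Aldoa at 241 ± 74.2, Eno1 at 142 ± 42.6, Ldha at 116 ± 48.7 and Pgk1 at 106 ± 36.6. The spread over CIA libraries exceeded the steps between neighbours from Eno1 to Pgk1, though each CIA library kept this order. With luteolin the order was Pkm at 268 ± 34.8, Aldoa at 150.3 ± 10.7, Eno1 at 123 ± 14.2 and Hif1a at 111 ± 5.46. The step from Eno1 to Hif1a was smaller than the SD of Eno1, though Eno1 was above Hif1a in each library with luteolin. In control, Aldoa at 99.6 ± 5.34 and Pkm at 96.5 ± 7.21 differed by less than either SD, with Aldoa above Pkm in each control library. P4ha2 was lowest in every group, at 0.146 ± 0.0292 RPKM with luteolin, 0.112 ± 0.0855 in CIA and 0.0325 ± 0.00827 in control.

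**Figure D4:**
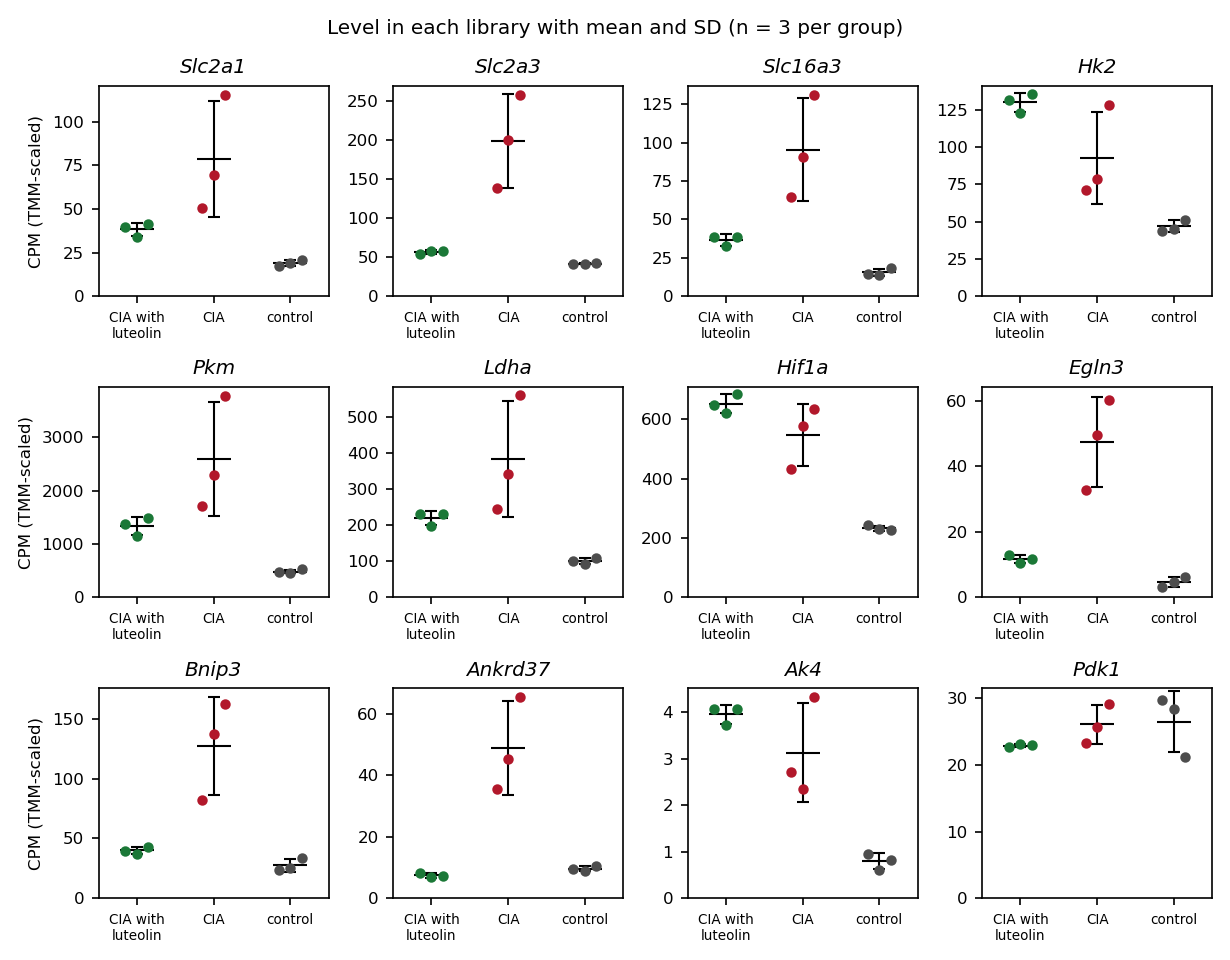
TMM-scaled CPM of 12 of the genes in each library, with 3 libraries for each of CIA with luteolin, CIA and control and a line with bars at each group mean and SD. Pkm reaches 3775 CPM in CIA replicate 3 against 458 to 524 in control, Hif1a is at 622 to 686 with luteolin, and Pdk1 lies within 21.2 to 29.8 in all groups.

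The regulators set how much sugar passes and where pyruvate goes. Pfkfb3 and Pfkfb4 make and remove fructose 2,6-bisphosphate, the activator of phosphofructokinase. Pfkfb3 rose in CIA (1.14 ± 0.14) and with luteolin against control (0.91 ± 0.14), and luteolin differed from CIA by -0.23 ± 0.14 (edgeR adjusted p = 0.21). Pfkfb4 rose in CIA by 1.04 ± 0.14 and fell with luteolin by 0.47 on the log2 scale (SE 0.13, edgeR adjusted p = 0.0138). Pdk1 encodes a kinase that holds back the oxidation of pyruvate in mitochondria and is a classic HIF-1 target. It stood at 22.6, 23.1 and 23.0 CPM with luteolin, 23.3, 25.7 and 29.1 in CIA, and 29.8, 28.3 and 21.2 in control. Levels of CIA and control overlapped, and so did those of luteolin and control. Its log2 fold changes were -0.02 ± 0.13 in CIA against control, -0.19 ± 0.13 in luteolin against CIA and -0.21 ± 0.13 in luteolin against control, with edgeR adjusted p = 0.891, 0.273 and 0.221 in that order (chromosome 2, 71703568 to 71734202, plus strand).

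Hif1a itself rose at the transcript level in both CIA groups. It stood at 649.9, 622 and 686 CPM with luteolin, 432, 577 and 636 in CIA, and 242, 232 and 225 in control (chromosome 12, 73948149 to 73994304, plus strand). All 6 libraries of the CIA groups lay above control, and luteolin overlapped CIA at its upper end. Hif1a was 2.35-fold higher in CIA than in control (1.23 ± 0.12, edgeR adjusted p = 3.6e-05) and 2.80-fold higher with luteolin than in control (1.49 ± 0.12, edgeR adjusted p = 9.26e-06). Its difference between luteolin and CIA was 0.25 ± 0.12 (edgeR adjusted p = 0.108). It reached 0.37 and passed the threshold once CIA replicate 3 was left out. Protein of HIF-1, which oxygen controls, was not measured.

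Egln3 and Egln1 encode the prolyl hydroxylases PHD3 and PHD2, which mark HIF-1 alpha for destruction, and Egln3 is itself a HIF-1 target in mouse and human cells. Egln3 (chromosome 12, 54225767 to 54250646, minus strand) stood at 12.9, 10.6 and 11.6 CPM with luteolin, 32.8, 49.5 and 60.3 in CIA, and 3.10, 4.79 and 6.08 in control. The 3 groups were apart from each other. Its 10.3-fold rise in CIA was the largest of the 41 genes in that comparison (3.36 ± 0.27, edgeR adjusted p = 1.01e-05). With luteolin it fell 4.05-fold against CIA (-2.02 ± 0.25, edgeR adjusted p = 9.47e-05) and stayed above control (1.34 ± 0.26, edgeR adjusted p = 0.00181). Egln1 differed by 0.15 ± 0.10 in CIA against control (edgeR adjusted p = 0.222) and rose slightly with luteolin against CIA (0.26 ± 0.10, edgeR adjusted p = 0.0469). That small rise lost its call under 9 of the 15 alternatives. Over the 3 hydroxylase genes, Egln2 included, Egln3 made up 15% ± 1.31 of RPKM with luteolin, 41.2% ± 7.5 in CIA and 5.12% ± 1.59 in control.

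Of the other targets, Bnip3 and Bnip3l encode receptors that direct mitochondria to autophagy. Bnip3 (chromosome 7, 138492565 to 138511248, minus strand) stood at 39.8, 37.1 and 43.1 CPM with luteolin, 82.5, 137 and 162 in CIA, and 23.9, 25.3 and 33.9 in control. CIA stood far above the rest, and luteolin just above control. Bnip3 rose in CIA (2.20 ± 0.22, edgeR adjusted p = 4.24e-05), fell with luteolin (-1.67 ± 0.22, edgeR adjusted p = 0.000156), and differed by 0.53 ± 0.22 in luteolin against control (edgeR adjusted p = 0.0684). Bnip3l moved the same way in the tests by less, at 0.71 ± 0.12 in CIA and -0.57 ± 0.12 with luteolin against CIA. For Bnip3, 22.3% of exonic bases lie in Gm45507 on the opposite strand and 33.5% of 100-base stretches occur in transcripts of other genes.

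Ankrd37, an ankyrin repeat gene induced in hypoxia, showed the largest fall with luteolin. It stood at 8.33, 6.82 and 7.30 CPM with luteolin, 35.4, 45.3 and 65.4 in CIA, and 9.55, 8.84 and 10.5 in control (chromosome 8, 46449939 to 46458744, minus strand). Libraries with luteolin lay below CIA and also below control. Ankrd37 was 5.06-fold higher in CIA than in control (2.34 ± 0.20, edgeR adjusted p = 1.58e-05) and 6.5-fold lower with luteolin than in CIA (-2.70 ± 0.20, edgeR adjusted p = 3.24e-06). Against control the difference with luteolin was -0.36 ± 0.20 (edgeR adjusted p = 0.166). Genes on the opposite strand share 26.4% of its exonic bases, namely Lrp2bp (22.7%), whose counts came to 16.9% of those of Ankrd37, and Ufsp2 (3.7%), whose counts came to 107%.

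Several targets stayed raised with luteolin. Ak4, a mitochondrial adenylate kinase, stood at 4.06, 3.72 and 4.07 CPM with luteolin, 2.72, 2.34 and 4.33 in CIA, and 0.950, 0.615 and 0.823 in control (chromosome 4, 101276474 to 101324192, plus strand). Luteolin and CIA overlapped, both clear of control. Ak4 rose in CIA (1.97 ± 0.27, edgeR adjusted p = 0.00023) and was 4.95-fold higher with luteolin than in control (2.31 ± 0.27, edgeR adjusted p = 7.66e-05), the largest rise of the 41 genes in that comparison. P4ha1 and P4ha2 encode catalytic subunits of collagen prolyl hydroxylase. P4ha1 rose in CIA (2.00 ± 0.21, edgeR adjusted p = 5.61e-05) and, although it fell with luteolin against CIA (-0.76 ± 0.21, edgeR adjusted p = 0.0113), was above control with it (1.24 ± 0.21, edgeR adjusted p = 0.000894). P4ha2 (chromosome 11, 53990921 to 54022491, plus strand) was read from few counts, with 42, 28 and 35 in the libraries with luteolin, 7, 22 and 38 in CIA, and 6, 8 and 8 in control. In CPM these were 0.997, 0.705 and 1.04 with luteolin, 0.195, 0.644 and 1.26 in CIA, and 0.150, 0.205 and 0.253 in control. CIA thus ran from the control level in replicate 1 to above luteolin in replicate 3. Its rise was 1.76 ± 0.60 in CIA against control (edgeR adjusted p = 0.0305), lost without CIA replicate 3 (1.05), without CIA replicate 2 (1.81) or without any of the 3 control libraries (1.57 to 1.93), and 2.17 ± 0.58 in luteolin against control (edgeR adjusted p = 0.0115).

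Ndrg1, a stress-induced gene, rose in CIA (1.57 ± 0.26) and fell with luteolin against CIA (-0.94 ± 0.25), and Mxi1, which encodes an antagonist of MYC, rose in CIA (1.17 ± 0.16) and fell with luteolin (-0.44 ± 0.15, edgeR adjusted p = 0.0372). Kdm3a, a histone H3 lysine 9 demethylase gene, rose in CIA (0.54 ± 0.14) and fell with luteolin (-0.80 ± 0.14, edgeR adjusted p = 0.00111). Ddit4, which encodes the mTORC1 inhibitor REDD1, rose slightly in CIA (0.34 ± 0.09) and fell with luteolin against CIA (-0.81 ± 0.09, edgeR adjusted p = 4.69e-05). Ddit4 was also the only one of the 41 genes lower with luteolin than in control (-0.47 ± 0.09, edgeR adjusted p = 0.00163), at 13.9, 13.4 and 14.1 CPM with luteolin against 18.8, 19.6 and 19.0 in control. Mxi1 lost its call in luteolin against CIA under 9 of the 15 alternatives.

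The remaining targets did not pass the threshold in CIA against control. Vegfa, the angiogenic growth factor gene, averaged 227 ± 3.59 CPM with luteolin, 235 ± 94.2 in CIA and 182 ± 12.5 in control, with 155 to 339 CPM among CIA libraries. Its difference in CIA against control was 0.37 ± 0.22 (edgeR adjusted p = 0.176). It reached 0.59 and passed the threshold once CIA replicate 1 was left out. Adm, which encodes the vasodilator adrenomedullin, differed by 0.32 ± 0.19 in CIA against control (edgeR adjusted p = 0.195) and fell with luteolin against CIA (-0.58 ± 0.20, edgeR adjusted p = 0.032), a call that 6 of the 15 alternatives lost. Bhlhe40, a transcriptional repressor gene used by helper T cells, differed by 0.01 ± 0.17 in CIA against control (edgeR adjusted p = 0.949) and rose with luteolin against CIA (0.47 ± 0.17, edgeR adjusted p = 0.0393), a call that 9 of the 15 lost. Higd1a, a gene of mitochondrial respiration, was at 9.61 to 12.1 CPM in all 9 libraries, and 22.5% of its exonic bases lie in Gm47112 on the opposite strand. In all, 7 of the 41 genes did not pass in CIA against control, namely Slc16a1, Pdk1, Egln1, Vegfa, Adm, Bhlhe40 and Higd1a.

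**Figure D5:**
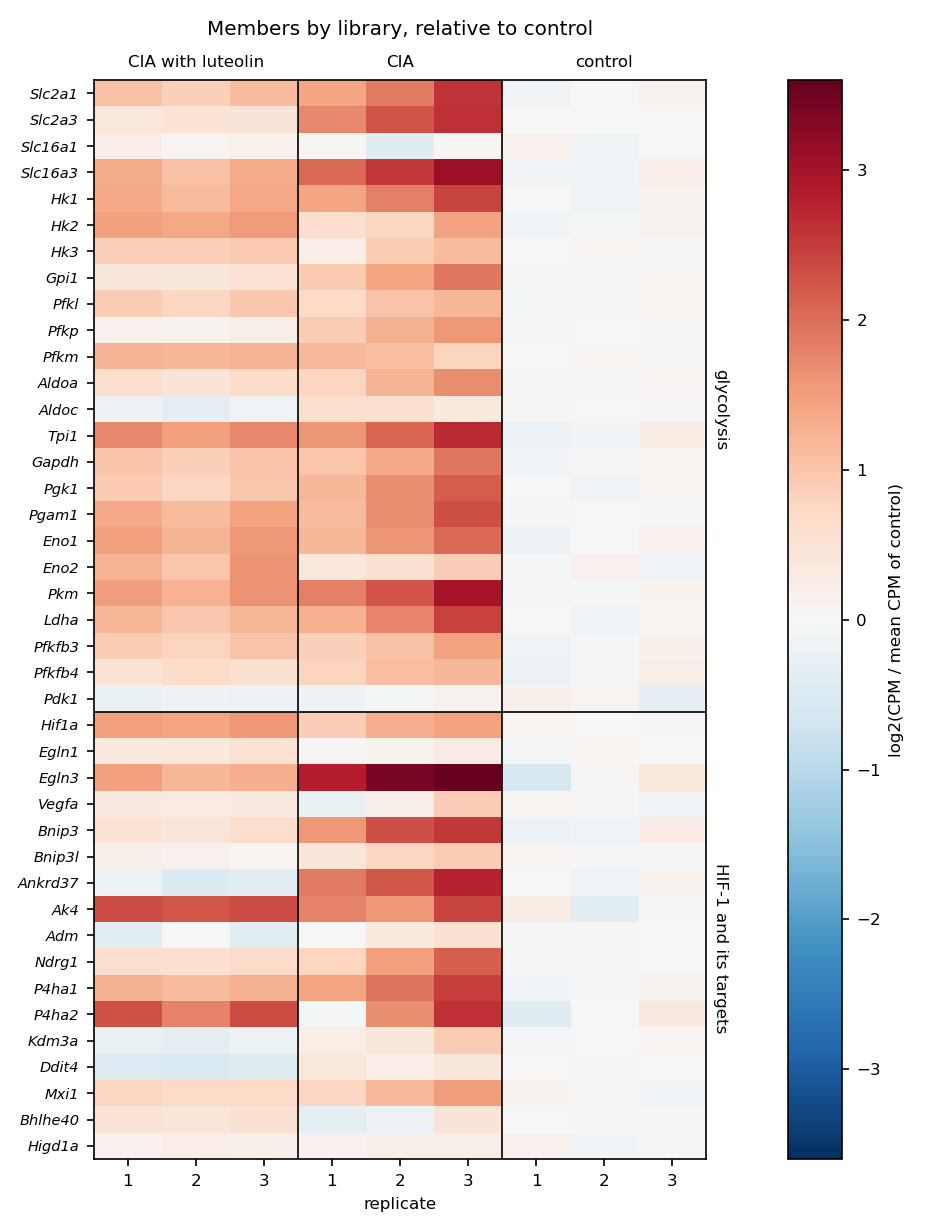
Log2 ratio of each gene's CPM in each library to its mean in control, for the 41 genes ordered by role (down) and the 9 libraries of CIA with luteolin, CIA and control (across). Within CIA, replicate 3 is highest for 22 of 24 glycolysis and 16 of 17 hypoxia genes, while Hif1a and Hk2 are as high or higher with luteolin, and Pdk1 and Slc16a1 stay near control throughout.

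A further 60 genes of the same pathways were counted beside the members, of which 51 were tested. In CIA against control 23 rose (45.1%, against 26.6% of all tested genes) and 7 fell (13.7%, against 24.5%), with a median log2 fold change of 0.21. In luteolin against CIA 13 rose (25.5%, against 23.1%) and 18 fell (35.3%, against 24.2%), with a median of -0.13. In luteolin against control 18 rose (35.3%, against 24.2%) and 8 fell (15.7%, against 20.8%), with a median of 0.35. The share that rose in luteolin against CIA was close to that of all tested genes. Pgm1 and Pgm2, which link glycogen and glucose phosphates, rose in CIA by 2.13 ± 0.18 and 1.08 ± 0.11, and with luteolin against CIA Pgm1 fell (-1.22 ± 0.17) while Pgm2 was at 0.01 ± 0.11 (edgeR adjusted p = 0.966). Gys1, muscle glycogen synthase, and Cited2, a HIF-1 antagonist, rose in CIA by 1.08 ± 0.12 and 1.23 ± 0.13. Kdm6b, a histone H3 lysine 27 demethylase gene, and Zfp292, which encodes a zinc finger protein, fell with luteolin against CIA by 1.15 and 1.20 on the log2 scale (SE 0.13 and 0.12). Among collagen genes, P4hb, the partner subunit of P4ha1, rose with luteolin against CIA (1.14 ± 0.12, edgeR adjusted p = 3.74e-05) and so did the lysyl hydroxylase gene Plod1 (1.21 ± 0.13, edgeR adjusted p = 4.92e-05). Plod2, another lysyl hydroxylase gene, rose in CIA (2.05 ± 0.25) and fell with luteolin (-0.94 ± 0.23), as P4ha1 did. Anxa1, a gene of the anti-inflammatory protein annexin A1, rose in CIA (1.10 ± 0.14) and again with luteolin against CIA (1.38 ± 0.14), and Ldhb, the lactate dehydrogenase subunit that favours pyruvate, was 7.83-fold higher with luteolin than in control (2.97 ± 0.31, edgeR adjusted p = 4e-05). Egln2, the prolyl hydroxylase PHD1, was lower than in control both in CIA (-0.52 ± 0.08) and with luteolin (-0.62 ± 0.08).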

How the data were processed

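RNA of 9 samples was sequenced as paired reads on a DNBSEQ-T7 from stranded mRNA libraries, per the labels' protocols. Per the labels' protocols, the authors mapped reads with a program spelled STRA (version 2.5.3a) and obtained exon counts per gene with featureCounts (Subread 1.5.1); these raw counts are what was deposited. The submitters' processing notes add trimming with Trimmomatic 0.36. The protocols name CHOK1GS, a hamster reference, whereas the processing notes name mm39 and the table lists mouse genes, so gene positions are given as mm39. Strand setting, annotation release and the treatment of reads that fit several genes are not given in the sources used here. Even numbers made up 73.4% of small values (1 to 10) but 52.8% of larger values (201 to 1000), so mates of a pair may have been counted separately and counts overstate the number of fragments.

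The analysis of these counts used edgeR 4.0.16 (R 4.3.3). In it, filterByExpr kept 19348 of 56860 genes (17069 were at 0 in every library), TMM factors ran between 0.950 and 1.02, and a quasi-likelihood model (glmQLFit) with a term for each group took in all 9 libraries. Contrasts were tested 2-sided by glmQLFTest, and p-values were adjusted by Benjamini-Hochberg over all tested genes, with a threshold of 0.05. SE is the size of the log2 fold change over the square root of F. CPM and RPKM were computed here from the counts, TMM scaling and the gene lengths of the table, with no pseudocount. No pair of replicates was a duplicate (chi-square per degree of freedom at least 5.51 over genes with 20 counts or more, and 32.2 to 114 between CIA libraries). The procedure was tested on simulated counts.

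Members, lists and the rule for naming genes were chosen with earlier results of these data known. By that rule, library values are printed for 9 genes of the pathway's main steps and for the 6 members with the largest non-overlapping changes in each comparison. Of the other pathway genes, up to 6 with the smallest p per comparison are named. Library values of Ddit4 were added after they were seen. Promoter windows came from RefSeq (GRCm38.p6), whose coordinates differ from those of the counts. The alternatives were DESeq2 (1.42.0) size factors and its own test, no filter, a filter at 1 CPM in 3 libraries, only the 6 libraries compared, a replicate block, and each library left out in turn. No column of other samples was present.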

Additional observations from a re-analysis of the deposited data

How the results depend on the processing

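Across 15 alternatives, 35 of the 41 genes in CIA against control, 23 in luteolin against CIA and 30 in luteolin against control kept their side of the threshold in every one. Those past it also kept their direction, while the sign of genes short of it did not enter this count. Without CIA replicate 3, Bhlhe40 turned to -0.26 in CIA against control (up to 0.16 without other libraries) and Vegfa to 0.30 in luteolin against CIA (down to -0.27 without others). In luteolin against CIA, glycolysis genes higher numbered 1 under DESeq2 size factors and 1 with only the 6 libraries compared, in place of 2, and hypoxia genes higher 0 in that 6-library fit, in place of 2. In luteolin against control, hypoxia genes lower numbered 3 in the 6-library fit (Ddit4, Ankrd37 and Kdm3a), in place of 1. With 1 library left out at a time, CIA against control gave 21 to 22 glycolysis and 11 to 13 hypoxia genes higher, and 0 to 1 hypoxia and 4 to 8 other pathway genes lower. These fits tested 19828 to 20034 genes each, of which 4275 to 5646 were higher and 3771 to 5419 lower in that comparison. Luteolin against CIA gave 9 to 17 glycolysis and 8 to 10 hypoxia genes lower, and 1 to 2 and 0 to 5 higher. All tested genes lower numbered 3335 to 5032 there, and higher 3706 to 4852. Luteolin against control gave 17 to 20 glycolysis and 7 to 11 hypoxia genes higher, and 0 to 1 glycolysis, 1 to 3 hypoxia and 5 to 9 other pathway genes lower. For that comparison the ranges over all tested genes were 3915 to 5376 higher and 2801 to 4930 lower. The cause of these shifts was not tested, and the fits that left libraries out also held fewer libraries.

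Replicate numbers recur in the groups, but the labels do not say that they pair samples. Deviations of same-numbered libraries correlated at 0.00654 to 0.143, over 0.1 in only some pairs. Those of libraries with different numbers correlated at -0.177 to 0.0919, and what lies behind this difference was not tested. A replicate block gave 22 glycolysis and 12 hypoxia genes higher in CIA against control, 13 and 9 lower with 2 and 2 higher in luteolin against CIA, and 20 and 9 higher in luteolin against control. Genes read from few counts limit what can be seen, P4ha2 most of all, with 6 to 42 counts per library.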
